A study of Homo sapiens with 4 samples.

Results

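The genes described here are 8 known targets of the coactivator YAP and its DNA-binding partners, the TEAD factors (CCN1, CCN2, ANKRD1, AMOTL1, AMOTL2, AJUBA, LATS2 and AXL) together with YAP1 and TEAD1. They were taken by gene symbol, and all 10 were found among the 60048 genes of the table and were tested. EU-seq was used to read nascent RNA: RNA made while cells take up the uridine analogue 5-ethynyl uridine (EU) is captured and sequenced. The cells were HCT116, a human colorectal carcinoma line, of genotype RAD21-mAC in every library, in which RAD21, a core cohesin subunit, carries a degron tag. Controls were given DMSO, and auxin cells were kept for 3 h in indole-3-acetic acid at 0.5 mM, which depletes RAD21. Each group held 2 libraries, labelled with 0.5 mM EU for 20 min. None of the libraries analysed here came from auxin-treated cells without the tag, so an effect of RAD21 loss and an effect of auxin itself cannot be told apart. The labels do not say whether replicates were separate cultures, so the p-values measure only the spread between these libraries.

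In the Hippo pathway, the kinases STK3 and STK4 with the scaffold SAV1 activate LATS1 and LATS2, which phosphorylate YAP and its paralogue TAZ (gene WWTR1) and keep them out of the nucleus. Unphosphorylated YAP enters the nucleus and binds TEAD proteins, which sit on DNA at the sequence GGAATG. The pathway responds to cell density, shape and cytoskeletal tension, and in the intestine YAP is known for its part in regeneration. Several targets feed back on the pathway: LATS2, AJUBA, AMOTL1 and AMOTL2 encode regulators of YAP itself.

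The promoters of the targets show how TEAD sequences are placed at these genes. The RefSeq promoter table (GRCh38.p14) held 8 of the 10 genes, all but CCN1 and TEAD1, with 2 start sites each for AMOTL2, AJUBA and AXL. Printed here are the 250 bases before the start of CCN2 and of AJUBA, which passed the test below, and of ANKRD1, a much used reporter of YAP activity. They lie at chr6:131951373-131951622, chr14:22982552-22982801 and chr10:90921088-90921337, all on the minus strand, and read 5′ to 3′ towards the start. Capitals mark GGAATG, the TEAD sequence, and TGANTCA, with any base at N. TGANTCA is a loose form of the sequence bound by AP-1, a factor that often sits beside TEAD at enhancers.
CCN2: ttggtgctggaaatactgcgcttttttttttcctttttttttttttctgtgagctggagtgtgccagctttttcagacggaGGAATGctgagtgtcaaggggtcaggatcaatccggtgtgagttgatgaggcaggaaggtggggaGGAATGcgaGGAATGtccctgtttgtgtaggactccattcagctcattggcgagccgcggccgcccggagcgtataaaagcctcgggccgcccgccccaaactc
ANKRD1: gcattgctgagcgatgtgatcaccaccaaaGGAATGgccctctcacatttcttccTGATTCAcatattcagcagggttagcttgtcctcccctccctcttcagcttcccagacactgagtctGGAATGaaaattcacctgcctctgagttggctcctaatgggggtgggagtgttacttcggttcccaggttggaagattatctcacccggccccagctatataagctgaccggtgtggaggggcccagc
AJUBA: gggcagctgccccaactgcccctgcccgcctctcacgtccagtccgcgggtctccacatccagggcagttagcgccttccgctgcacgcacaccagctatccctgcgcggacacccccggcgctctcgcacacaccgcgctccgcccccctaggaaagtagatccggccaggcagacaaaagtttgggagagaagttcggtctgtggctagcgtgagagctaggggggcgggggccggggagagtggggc
CCN2 held GGAATG 3 times, beginning 169, 104 and 95 bases before the start. ANKRD1 held it 2 times, at 220 and 128 bases before the start, with an AP-1 sequence 195 bases before the start. The AJUBA window held none of these sequences, whereas the window of its second start, 5709 bases inside the gene, held GGAATG 59 bases before that start. The window from 250 bases before to 50 after each start was searched on both strands. GGAATG was in 7 of the 11 start sites, against 14.0% of all 35116 promoters. By gene the count was 7 of 8. It has no such share beside it, since 3 of these genes had 2 windows each. AMOTL1 was the gene without it, and in LATS2 the match lay 9 bases after the start. TGANTCA was in 1 of the 11 windows (7.71% of all promoters), and the CArG box, bound by SRF, was in 0 of 11 (1.29% of all promoters). AMOTL2, AJUBA and AXL held GGAATG only at their second start in this table. A match is a description of the letters and shows no binding.

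Of the 10 genes, CCN2 and AJUBA were called higher with auxin (limma, adjusted p under 0.05 over 39464 genes tested) and none was called lower. Over all genes, 0.329% were called higher and 0.408% lower, 0.737% in either direction. At an unadjusted p under 0.05 LATS2 joined them, so that 3 of 10 were higher and 0 lower, where all genes gave 4.60% and 5.71%. Both auxin libraries lay above both control libraries for the same 3 genes (18.0% of all genes) and below them for none (20.2% of all genes). The log2 fold change was above 0 for 9 of 10, against 50.2% of all genes, but 3 of these 9 values were under 0.1. Its median was 0.25, against 0.0013 over all genes, and it moved with single libraries. Leaving out control replicate 1 gave 0.0066 and leaving out auxin replicate 2 gave -0.057, whereas 0.53 and 0.58 were obtained with control replicate 2 or auxin replicate 1 omitted. Values are deposited signals over the whole gene span, introns included, brought to a common scale over genes. In these bulk libraries, fewer cells with a transcript and less of it per cell cannot be told apart. A level is a scaled signal, and a change is a difference of log2(signal + 1), auxin minus control.

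**Figure D1:**
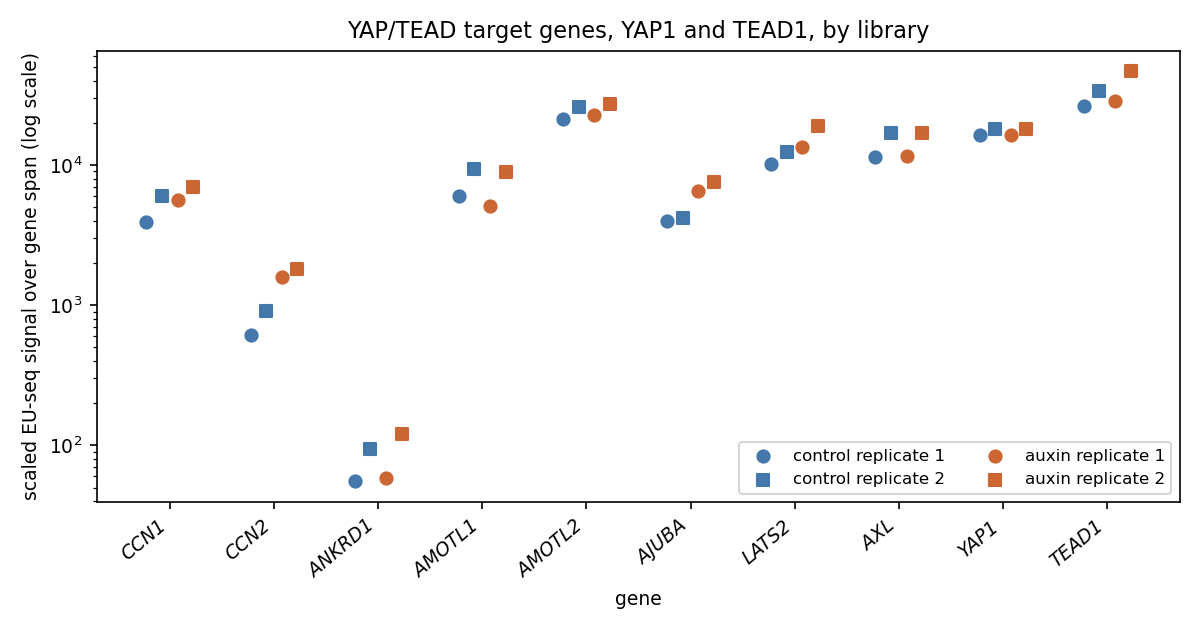
Scaled EU-seq signal over the gene span (log axis) of each of the 10 genes in the 2 control and 2 auxin libraries, each point being 1 library. Only for CCN2, AJUBA and LATS2 do both auxin points lie above both control points, and in every gene replicate 2 of a group lies above replicate 1.

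CCN2 encodes a secreted matricellular protein (CTGF) that binds matrix and growth factors, and it is among the most used readouts of YAP. Its scaled signal was 614 and 907 in control and 1599.9 and 1817 in auxin. The groups did not overlap, and the lower auxin library was 1.76 times the higher control library. The means were 761 ± 207 and 1709 ± 154 (SD, n = 2 each), 2.25-fold higher with auxin, the log2 fold change being 1.19 (SE 0.21; limma adjusted p = 0.0361). Without control replicate 1 the value was 0.93 (adjusted p = 0.12), and on the deposited scale 1.18 (adjusted p = 0.585). Over 12 alternatives the log2 fold change lay between 0.93 and 1.47, the adjusted p between 6.74e-17 and 0.585, and CCN2 was called in 10. CCN2 (ENSG00000118523) lies on GRCh38 chromosome 6 from 131948176 to 131951372 on the minus strand. It shares 427 bases with AL133346.1, a 126448-base gene on the opposite strand, with 277 and 364 in control and 451 and 512 in auxin (log2 fold change 0.60, SE 0.22, adjusted p = 0.347).

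AJUBA encodes a LIM-domain protein of cell junctions that binds LATS kinases and restrains them. It measured 3966 and 4195 in control and 6523 and 7608 in auxin. The control libraries lay close together and the groups did not overlap. The means were 4080.3 ± 162 and 7066 ± 767 (SD, n = 2 each), 1.73-fold higher with auxin, the log2 fold change being 0.79 (SE 0.14; limma adjusted p = 0.0344). The direction held when any library was left out, but the call did not: the value was 0.76 without control replicate 1 (adjusted p = 0.118), 0.83 without control replicate 2 (0.0735) and 0.68 without auxin replicate 2 (0.114). On the deposited scale it was 0.78 with an adjusted p of 1, and over the 12 alternatives the adjusted p ran from 1.03e-11 to 1, with a call in 8. AJUBA (ENSG00000129474) lies on chromosome 14 from 22971177 to 22982551 on the minus strand, and 11082 of its bases are shared with AL132780.3, a 35989-base gene on the same strand. AL132780.3 was at 0.54 on the log2 scale (SE 0.13; adjusted p = 0.111). The signal of AL132780.3 minus that of AJUBA was 2123 and 2205 in control and 2016 and 2084 in auxin. This remainder did not rise with auxin. It takes off the signal of all of AJUBA, not only of the shared bases. Signal of any other gene within the rest of AL132780.3 was not taken off. The remainder is therefore not a measure of AL132780.3 alone. The signal of the shared bases cannot be assigned to one gene or the other.

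LATS2, the kinase that phosphorylates YAP and is itself a YAP target, measured 10161 and 12487 in control and 13450.3 and 19034 in auxin. The groups did not overlap, but the lower auxin library was only 1.08 times the higher control library. The means were 11324 ± 1645 and 16242 ± 3948 (SD, n = 2 each), with a log2 fold change of 0.51 (95% interval 0.13 to 0.88, limma adjusted p = 0.277, unadjusted p = 0.0132). It was 0.77 without auxin replicate 1 (adjusted p = 0.00237) and 0.26 without auxin replicate 2 (adjusted p = 1). Over the 12 alternatives the adjusted p ran from 9.54e-06 to 1, and LATS2 was called in 2. LATS2 (ENSG00000150457) spans chromosome 13 from 20973036 to 21061586 on the minus strand. LATS2-AS1, a gene of 12966 bases inside it on the opposite strand, was at 0.53 on the log2 scale (SE 0.20; adjusted p = 0.343).

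CCN1, the paralogue of CCN2 and likewise a secreted matricellular protein (CYR61), measured 3939 and 6056 in control and 5654 and 6919 in auxin. The groups overlapped, since auxin replicate 1 lay below control replicate 2. The log2 fold change was 0.36 (95% interval -0.083 to 0.80, limma adjusted p = 0.623), with 0.062 as its lowest and 0.67 as its highest value when a library was left out. Over the 12 alternatives the adjusted p ran from 0.00943 to 1, and CCN1 was called in 1, the fit with the replicate number as a block. With that block, 4314 of all 39464 genes tested were called. The difference between the responses of CCN1 and CCN2 was not tested. CCN1 (ENSG00000142871) spans chromosome 1 from 85580915 to 85584589 on the plus strand.

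ANKRD1, an ankyrin-repeat protein known from muscle and a reporter of YAP activity, had the lowest signal of the 10. It measured 55.3 and 94.3 in control and 58.7 and 119.8 in auxin, so each group held a low and a high library. The log2 fold change was 0.21 with a wide 95% interval of -0.68 to 1.11 (limma adjusted p = 0.956), which spans both a fall and a rise of more than 1.5-fold. Leaving out control replicate 1 gave -0.15, and leaving out auxin replicate 2 gave -0.29. ANKRD1 (ENSG00000148677) spans chromosome 10 from 90912096 to 90921087 on the minus strand.

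The angiomotin-like genes encode junction proteins that hold YAP in the cytoplasm. AMOTL1 measured 6046 and 9342 in control and 5142 and 8856 in auxin. The groups overlapped almost wholly, and the log2 fold change of -0.16 (95% interval -0.72 to 0.41, limma adjusted p = 0.947) was the only value below 0 among the 10. AMOTL2 measured 21291 and 26114 in control and 22621 and 27261 in auxin. Its groups overlapped as well, and its log2 fold change was 0.075 (95% interval -0.22 to 0.37, adjusted p = 0.953). AMOTL1 (ENSG00000166025) lies on chromosome 11 from 94768342 to 94876748, plus strand, and AMOTL2 (ENSG00000114019) on chromosome 3 from 134355877 to 134375479, minus strand.

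AXL encodes a receptor tyrosine kinase for the ligand GAS6. It measured 11442 and 16944 in control and 11691 and 16850.5 in auxin. Both auxin libraries lay inside the control range, and the log2 fold change was 0.012 (95% interval -0.44 to 0.46, limma adjusted p = 0.997). On the deposited scale the sign turned, at -0.00039. AXL (ENSG00000167601) spans chromosome 19 from 41219223 to 41261766 on the plus strand.

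YAP1, the coactivator itself, had the value nearest 0 and the narrowest interval of the 10. It measured 16436 and 17995 in control and 16353 and 18101 in auxin, with a log2 fold change of 0.00059 (95% interval -0.25 to 0.25, limma adjusted p = 0.999). Its sign turned with single libraries and on the deposited scale. TEAD1, a DNA-binding partner of YAP, measured 26386 and 33850 in control and 28780.2 and 46674 in auxin. Auxin replicate 2 stood apart from the other 3 libraries, and the log2 fold change was 0.29 (95% interval -0.14 to 0.73, adjusted p = 0.727). Without auxin replicate 1 it was 0.66 (adjusted p = 0.00123) and without auxin replicate 2 it was -0.054, within a range of adjusted p from 0.00123 to 1 over the 12 alternatives and with a call in 2. YAP1 (ENSG00000137693) spans chromosome 11 from 102110447 to 102233424, and TEAD1 (ENSG00000187079) the same chromosome from 12674421 to 12944737, both on the plus strand.

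**Figure D2:**
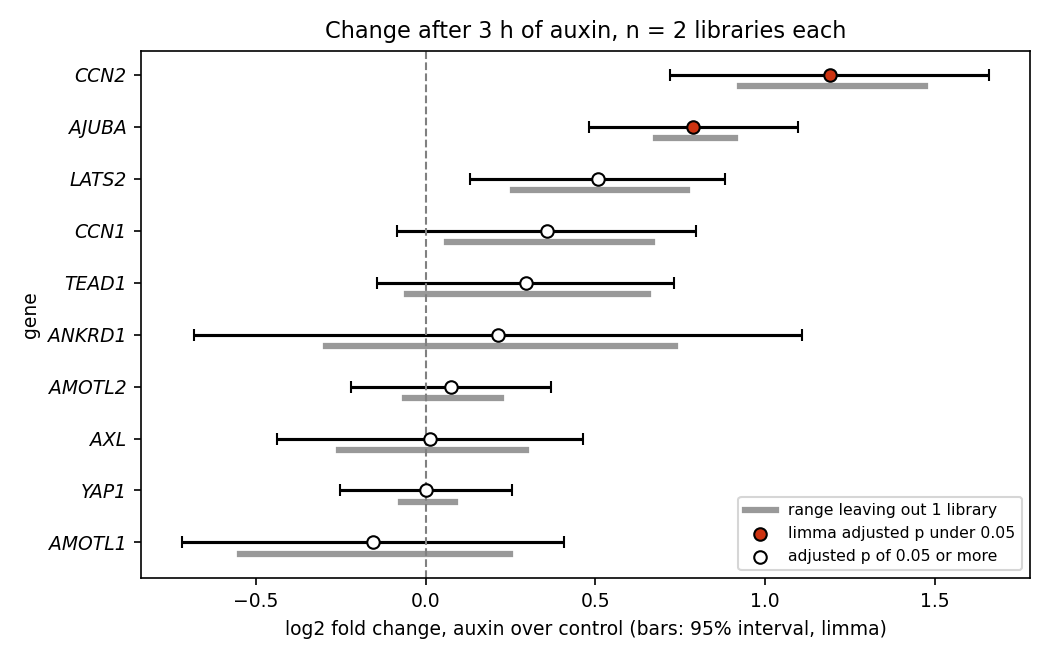
Log2 fold change of auxin over control for each gene, with the 95% interval of limma (black bars, n = 2 libraries each) and the range of the value when 1 library is left out (grey bars). CCN2 at 1.19 and AJUBA at 0.79 are filled as called, and for 6 of the other genes (TEAD1, ANKRD1, AMOTL2, AXL, YAP1 and AMOTL1) the grey bar crosses 0.

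The 10 genes shared a difference between replicates of the same group. Replicate 2 lay above replicate 1 in control for 10 of 10 genes and in auxin for 10 of 10. Of all genes tested, 32.0% had replicate 2 above replicate 1 in both groups. The log2 difference, replicate 2 minus replicate 1, ran from 0.081 (AJUBA) to 0.76 (ANKRD1) in control and from 0.15 (YAP1) to 1.02 (ANKRD1) in auxin. For CCN1, AMOTL1, AXL and ANKRD1 it was larger in both groups than for YAP1, AJUBA and AMOTL2, though CCN1 and AMOTL2 were close in auxin (0.29 and 0.27). For 7 of the 10 genes at least 1 of these replicate differences was larger than the change with auxin, the exceptions being CCN2, AJUBA and LATS2. Within both replicate numbers, auxin lay above control for CCN1, CCN2, ANKRD1, AMOTL2, AJUBA, LATS2 and TEAD1 and below it for AMOTL1. For AXL and YAP1 the replicate numbers differed in direction. The share of all genes was not counted for these directions, nor for replicate differences larger than the change with auxin. Neither count is thus shown to set the 10 genes apart. With the replicate number as a block, CCN1, LATS2 and TEAD1 were also called, as given below. That fit called 4314 of all 39464 genes tested, against 291 without the block, so a call there is far more common. What the replicate numbers mark was not given in the labels.

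Per kilobase of span, the only scale on which levels of different genes are compared here, the genes differed widely. CCN1 and AMOTL2 were highest in control, at 1360 ± 407 and 1209 ± 174 (SD, n = 2 each), and their libraries overlapped. AJUBA (359 ± 14.2) and AXL (334 ± 91.5) followed and overlapped, and AXL overlapped CCN2 (238 ± 64.7). YAP1 (140.0 ± 8.91), LATS2 (128 ± 18.6) and TEAD1 (111 ± 19.5) formed a group with overlapping neighbours. AMOTL1 (71.0 ± 21.5) and ANKRD1 (8.32 ± 3.06) were lowest, each below its upper neighbour in every control library. In auxin the order changed in that CCN2 (534 ± 48.1) lay above AXL (335 ± 85.8) and LATS2 (183 ± 44.5) above YAP1 (140.1 ± 10.0), in both cases with no overlap between libraries of the neighbours. The same genes led and trailed in auxin.

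The library kit keeps strand, but whether the deposited values were counted by strand is not given in the sources used here. Inside LATS2, AXL, YAP1 and TEAD1 lie 6 tested genes on the opposite strand, and their control signal per kilobase was 0.556 to 2.94 times that of the host gene. For AC013549.1 and AC013549.3 in TEAD1 it was 0.982 and 0.984 times. Of 14 tested genes that overlap any of the 10, none was called (limma), and 3 had an unadjusted p under 0.05 (AL132780.3, AL133346.1 and LATS2-AS1). Over all genes tested, 0.737% were called and 10.3% had an unadjusted p under 0.05. The overlapping genes share bases with the 10 genes and are not independent of them. Transcription of both strands and counting without strand cannot be told apart from these values.

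Other genes of the pathway were counted from lists. Over all genes tested, 0.329% were called higher and 0.408% lower (limma). At an unadjusted p under 0.05 the shares were 4.60% and 5.71%, and 50.2% had a log2 fold change above 0. These shares apply to every list below. Among 16 further YAP/TEAD targets of a published signature, 15 were tested (FOXF2 was not), with 1 called higher and 2 called lower, and the median log2 fold change was -0.19. F3, encoding tissue factor, the trigger of coagulation, fell from 4345 and 6882 in control to 1356 and 1339 in auxin, the log2 fold change being -2.02 (SE 0.21; limma adjusted p = 0.00214), and was called in all 12 alternatives. NUAK2, an AMPK-related kinase, fell from 2336 and 2545 to 875 and 1019.9, the log2 fold change being -1.37 (SE 0.17; adjusted p = 0.00531), and was called in 11 of 12. MYOF, encoding the membrane-repair protein myoferlin, rose from 76520 and 83078 to 104869 and 121915, the log2 fold change being 0.50 (SE 0.096; adjusted p = 0.0468).

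The call of MYOF was fragile and held in 5 of 12 alternatives. Its log2 fold change was 0.46 without control replicate 1 (adjusted p = 0.152), 0.56 without control replicate 2 (0.0765) and 0.40 without auxin replicate 2 (0.0589), within a range of adjusted p from 1.71e-06 to 1. In all, 4 of the 15 had a log2 fold change above 0: MYOF, NT5E (0.48, adjusted p = 0.165), ARHGEF17 (0.37, 0.27) and GADD45A (0.21, 0.779). At an unadjusted p under 0.05, 3 were higher and 4 lower. The lower ones were F3, NUAK2, ASAP1 (log2 fold change -0.44, limma adjusted p = 0.262) and DOCK5 (-0.32, 0.39). The list thus held called genes of both directions.

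Among the 10 factors and cofactors, 8 were tested (VGLL1 and VGLL2 were not) and none was called, with 1 at an unadjusted p under 0.05. That gene was WWTR1, encoding TAZ, the paralogue of YAP. It measured 16178 and 16409 in control and 9047 and 11761 in auxin. The groups did not overlap, and the log2 fold change was -0.66 (SE 0.14, limma adjusted p = 0.0732). It was -0.85 without auxin replicate 2 (adjusted p = 4.33e-04) and -0.46 without auxin replicate 1 (adjusted p = 0.241), within a range from 1.69e-09 to 1 over the alternatives. TEAD2, TEAD3 and TEAD4 had log2 fold changes of -0.21, -0.040 and -0.17 (adjusted p = 0.79, 0.99 and 0.766), and VGLL4, which competes with YAP for TEAD, had -0.088 (adjusted p = 0.923).

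All 20 Hippo kinases and adaptors were tested and none was called, with 4 higher (LATS2 among them) and 1 lower at an unadjusted p under 0.05. The lower one was NF2, encoding the upstream tumour suppressor merlin, with 26220 and 30878 in control and 17433 and 22149 in auxin. Its groups did not overlap, and its log2 fold change was -0.53 (SE 0.14, limma adjusted p = 0.138). It was -0.71 without auxin replicate 2 (adjusted p = 0.00122) and -0.35 without auxin replicate 1 (adjusted p = 0.414), within a range from 1.02e-06 to 1 over the alternatives. The kinases TAOK3 and TAOK1 had log2 fold changes of 0.35 and 0.25, and FRMD6, a FERM-domain protein, had 0.35 (adjusted p = 0.319, 0.422 and 0.454). LATS1, the paralogue of LATS2, was at -0.0083 (adjusted p = 0.996). The median of the list was 0.0094.

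The 16 paralogues of the members, all tested, held no called gene, with 1 higher and 3 lower at an unadjusted p under 0.05 and a median log2 fold change of -0.067. CCN4, a further CCN protein (WISP1), was at 68.1 and 72.8 in control and 133 and 236 in auxin, the log2 fold change being 1.32 (SE 0.32; limma adjusted p = 0.118). It was 1.75 without auxin replicate 1 (adjusted p = 0.00677) and 0.91 without auxin replicate 2 (adjusted p = 0.677), the adjusted p over the alternatives running from 1.20e-05 to 0.677. TYRO3 and MERTK, the receptor kinases related to AXL, were at -0.34 and -0.35 (adjusted p = 0.409 and 0.479). LIMD1 and WTIP, the relatives of AJUBA, were at -0.14 and 0.19 (adjusted p = 0.793 and 0.709). AMOT was at -0.094 (adjusted p = 0.985), and CCN3, CCN5, CCN6, ANKRD2 and ANKRD23 lay between -0.47 and 0.38.

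The factor SRF with its coactivators MRTF also drives CCN1, CCN2 and ANKRD1 and is known for cytoskeletal targets. All 15 SRF/MRTF targets were tested and none was called, with TPM4 (0.35, limma adjusted p = 0.212) and TPM2 (-0.41, adjusted p = 0.232), both tropomyosins, the only genes at an unadjusted p under 0.05. Of the 15, 12 had a log2 fold change above 0 (50.2% of all genes did), with a median of 0.072. FHL2 and ZYX, LIM-domain proteins of actin structures, were at 0.39 and 0.17 (adjusted p = 0.553 and 0.748). SRF itself was at 0.045 (adjusted p = 0.979).

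**Figure D3:**
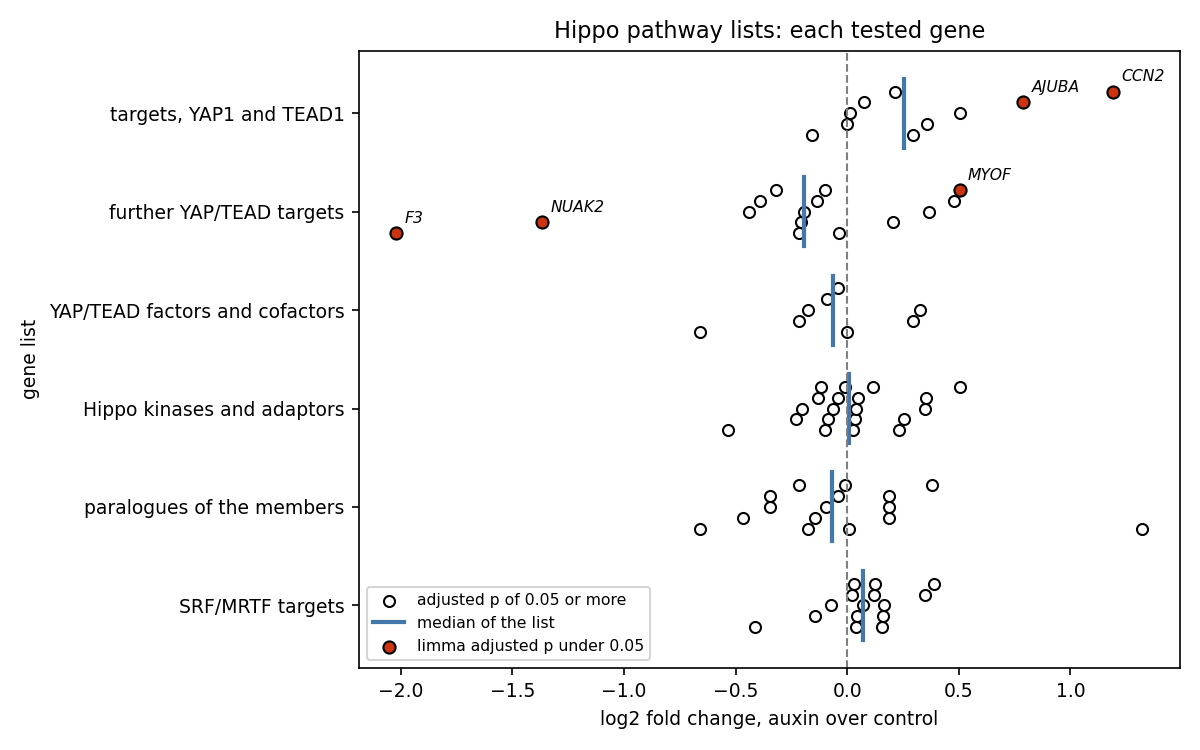
Log2 fold change of every tested gene in 6 lists, auxin over control, with called genes filled and named and the median of each list as a line (LATS2, YAP1, TEAD1, WWTR1, PTPN14, LATS1, TEAD2, TEAD3 and TEAD4 are in 2 or more lists). Called genes lie above 0 for CCN2, AJUBA and MYOF and below 0 for F3 and NUAK2.

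Since cohesin folds chromosomes into domains, each gene was set beside the nearest tested protein-coding gene on either side that does not overlap it. None of the 20 neighbours was called (limma), and 5 had an unadjusted p under 0.05 (10.3% of all genes did). Of the 20, 7 had a log2 fold change above 0 (50.2% of all genes did). The median of the 20 was -0.14. Next to CCN1, DDAH1, an enzyme that degrades methylated arginine, lay 2551 bases away and measured 3670.2 and 5328 in control and 2343 and 3172 in auxin. Its groups did not overlap (log2 fold change -0.70, SE 0.21, adjusted p = 0.206), and ZNHIT6 on the other side was at -0.49 (adjusted p = 0.198).

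The neighbours of CCN2, ENPP1 and MOXD1, were at -0.32 and -0.28 (limma adjusted p = 0.672 and 0.904). Those of AJUBA were HAUS4 at -0.34 and C14orf93 at 0.26 (adjusted p = 0.536 and 0.719), and C14orf93 lies 3342 bases away. XPO4 beside LATS2 was at -0.40 (adjusted p = 0.18) and SAP18 at -0.029 (adjusted p = 0.99). The genes around TEAD1 stood above 0: PARVA, a focal adhesion protein, went from 9466 and 9554 to 12255 and 15587 (log2 fold change 0.54, SE 0.14, adjusted p = 0.135), and ARNTL, a clock factor, was at 0.70 (adjusted p = 0.189). Differences between a gene and its neighbour were not tested.

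**Figure D4:**
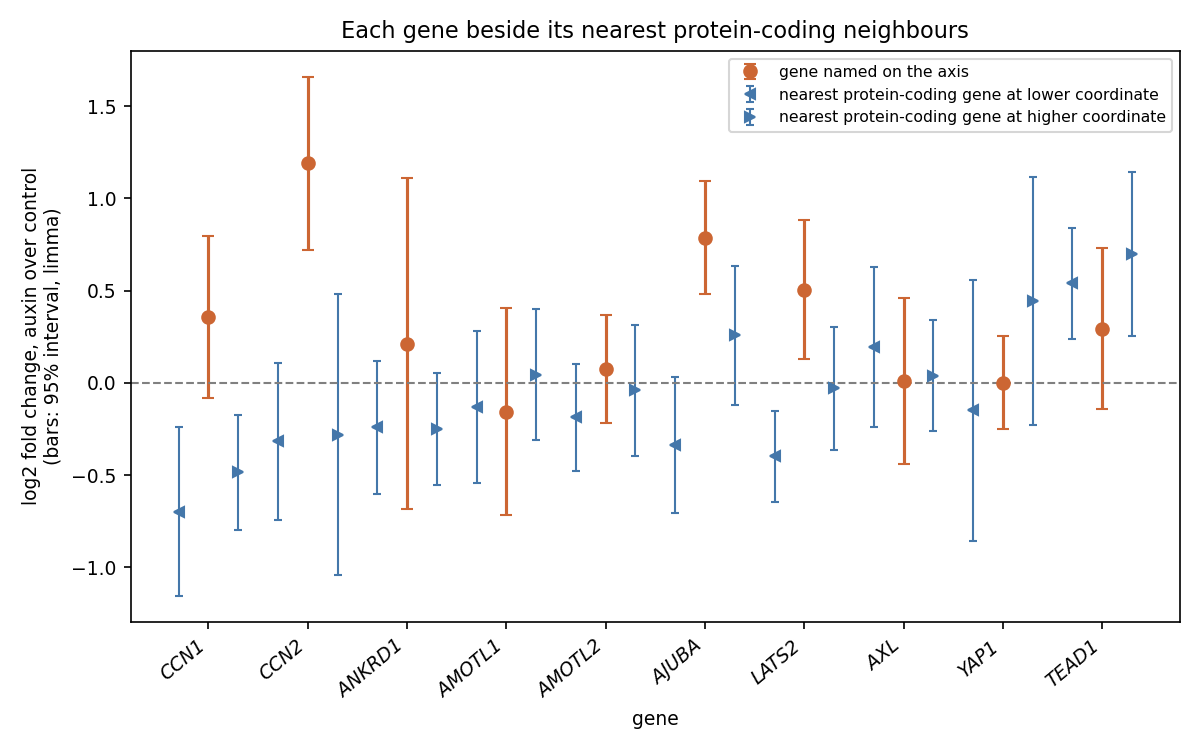
Log2 fold change of each of the 10 genes (orange circles) and of its nearest tested protein-coding neighbours at lower and higher coordinates (blue triangles), with 95% intervals of limma. For CCN1, CCN2, ANKRD1, AMOTL2 and LATS2 both neighbours lie below 0 while the gene lies above it, and for TEAD1 both neighbours lie above 0.

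Across the series, deposited totals ranged from 61135244 to 93113007, and the divisors that brought the libraries to a common scale ranged from 0.818 to 1.21. The deposited values are scaled, and how they relate to reads is not given. Depth in reads therefore cannot be stated, and intervals for counting error are left out. RAD21 itself measured 5174 and 7200.5 in control and 5879 and 6245 in auxin (limma adjusted p = 0.996); the degron acts on the protein, so this RNA does not check the labels. Of the markers of colon epithelium, EPCAM, CDH1, KRT8, KRT18, KRT19 and CDX2 carried signal in all libraries and CDX1 was low (6.72 to 17.0). The 7 markers summed to 58525 and 64576 in control and 57440 and 59523 in auxin. Fibroblast markers (4 genes) summed to 653 and 796 in control and 936 and 1074 in auxin, most of it COL1A1, with COL1A2 between 0 and 5.34. Endothelial markers (3 genes) summed to 583 and 650 in control and 679 and 816 in auxin, and blood markers (3 genes) to 66.7 to 79.5 over the 4 libraries. Of the 15 markers tested none was called (limma), and 4 had an unadjusted p under 0.05 (10.3% of all genes did). Of these 4, CDH1 and COL1A1 were higher and KRT8 and KRT19 lower. The part of the markers in the results was not tested.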

How the data were processed

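Human gene signals of 4 EU-seq libraries (2 control, 2 auxin, grouped by sample title) were analysed. The authors deposited 1 table with a scaled signal per gene, library and whole gene span. One column name is misspelt and was assigned by its replicate number. Per the submitters' processing notes, Trimmomatic 0.39, Bowtie2 2.4.5 and deepTools 3.5.1 were used with builds hg38 and dm6; the counting and scaling steps are not given in the sources used here. Low values (up to 20 steps, tolerance 0.05 step) were in 100% of cases whole multiples of 1 step per library (0.847, 1.04, 0.727 and 1.36 for control replicates 1 and 2 and auxin replicates 1 and 2). How a step relates to a read is not given. Of genes of at least 10 kb, 2 to 8 held 1 step, 141 to 221 held 2 and 163 to 212 held 3. Hence limma was used and no count model.

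In R 4.3.3, genes were tested if at least 2 libraries reached a value worth 10 in a library of median total and the total was at least 15. Scaling used trimmed means of M-values without weights (trimming 30% of ratios and 5% of levels at each end). This removes any change in the total of nascent RNA. The log2 of signal + 1 was fitted with limma 3.58.1 (lmFit, eBayes with trend; prior degrees of freedom 8.21), auxin against control, with the Benjamini-Hochberg adjustment over all 39464 genes. Intervals are limma's 95% intervals. The procedure was tested on simulated data.

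Starts were printed 1 higher than in the table, after which 7 of 10 starts and 8 of 10 ends equalled RefSeq's (GRCh38.p14). Motifs were searched with Python 3.11.15 and pandas 2.3.3, and figures were drawn with matplotlib 3.10.9. The genes, lists and tests were chosen with earlier results of these data known. Named genes were the 10 genes, RAD21, overlapping and nearest tested protein-coding genes, and the 3 protein-coding genes with the most similar pattern to the gene of smallest p. From each list, called genes or else the 4 with the smallest p were named, with direct paralogues. NT5E, ARHGEF17, GADD45A, ASAP1, DOCK5, VGLL4, FRMD6 and SRF were added after their values were seen. The alternatives were 3 other scalings, 2 other filters, 2 other pseudocounts, a stricter threshold, the replicate number as a block, and each library left out. The 12 alternatives counted for single genes leave out the stricter threshold. At that threshold CCN2, AJUBA and MYOF were not called, whereas F3 and NUAK2 were.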

Additional observations from a re-analysis of the deposited data

How the results depend on the processing

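CCN2 and AJUBA were the called genes under median-ratio scaling, scaling by library total, no filter, a mean of at least 50 and pseudocounts of 0.1 and 10; there 195 to 332 genes were called in all, against 291. On the deposited scale 55 genes and 0 of the 10 were called (unadjusted p under 0.05 for 1). There the divisors, 0.818 for auxin replicate 1 and 1.21 for auxin replicate 2, were not applied. Differences in scale between libraries thus stayed in the values. The log2 fold changes of CCN2 and AJUBA were 1.18 and 0.78, against 1.19 and 0.79. The cause of the fewer calls was not tested. At an adjusted p under 0.01, 82 genes and 0 of the 10 were called (unadjusted p under 0.05 for 3), fewer by construction. Leaving out 1 library gave 147 to 679 genes and 0 to 4 of the 10.

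Leaving out 1 library turned the sign of several log2 fold changes. They ranged from -0.29 to 0.73 for ANKRD1, -0.55 to 0.25 for AMOTL1, -0.060 to 0.22 for AMOTL2, -0.26 to 0.30 for AXL, -0.073 to 0.086 for YAP1, -0.054 to 0.66 for TEAD1 and -0.23 to 0.23 for RAD21. On the deposited scale AXL was -0.00039 and YAP1 -0.011. RAD21 was 0.0015 under median-ratio scaling and 0.032 under scaling by library total. In the 250 bases before the start alone, 6 of 11 start sites held GGAATG.

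Nothing in the labels ties a replicate number to a culture day or batch, and the replicate differences correlated across genes between the groups (Pearson's r 0.231, Spearman's rho 0.306 over 39464 genes; 0.462 and 0.448 over the 29160 with a mean of at least 50); genes are not independent replicates. With the replicate block, 4314 of 39464 genes were called, against 291 without it. Among them were 5 of the 10: CCN2, AJUBA, LATS2 (limma adjusted p = 9.54e-06), CCN1 (0.00943) and TEAD1 (0.0201).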

Other observations

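The gene with the smallest p of the 10 was AJUBA, and the most similar patterns were sought among 15994 protein-coding genes with a mean scaled signal of at least 50. Likeness was the root-mean-square difference of mean-centred log2 values over the 4 libraries, which are few. The nearest was LPXN, encoding leupaxin, a LIM-domain protein of focal adhesions, at 0.022, with 505 and 537 in control and 805 and 952 in auxin. C2orf92 (0.0306) and CDKL2 (0.0345), a kinase, followed. Their log2 fold changes were 0.75, 0.75 and 0.85, and none was called (limma adjusted p = 0.138, 0.159 and 0.0974). Since these genes were chosen on the same 4 libraries, log2 fold changes near that of AJUBA follow from the choice.

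The shared difference between replicates was also counted in the lists. Replicate 2 lay above replicate 1 in both groups for 11 of 15 further YAP/TEAD targets (73.3%) and 13 of 20 Hippo kinases and adaptors (65.0%). The same held for 7 of 15 SRF/MRTF targets (46.7%) and 4 of 16 paralogues (25.0%), beside 32.0% of all genes tested. It also held for 4 of 8 factors and cofactors. Among tested markers it held for 5 of 7 of colon epithelium, 3 of 3 of endothelium, 2 of 3 of fibroblasts and 1 of 2 of blood. High shares were thus not confined to lists of the pathway, though the marker lists are short.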
